A study of Mus musculus with 6 samples.

Results

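Immediate early genes are the genes a cell transcribes first when it meets a growth factor, serum or stress. Those described here are Egr1, Egr2, Fos, Fosb, Jun, Junb, Ier2, Ier3, Ier5 and Dusp1, 10 genes chosen by name, with every probe set whose only gene symbol is one of them. They were read by 14 of the 45037 probe sets tested on an Affymetrix whole-genome mouse expression array. Values are log2 signals of the robust multiarray average (RMA), so a difference of 1 is a doubling. Levels of different probe sets are not set against each other.

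The cells were mouse embryonic stem (ES) cells of line EBRTcH3 with the human WBSCR1 open reading frame, tagged with 3xFLAG, at the ROSA26 locus under a promoter that tetracycline holds silent. Induced cells had grown for 24 h in medium without tetracycline, and control cells were grown with it. Clones A1, A3 and A4, each a cell clone of its own, gave 1 induced and 1 control array each, 6 arrays in all. All 6 carried the transgene, the design does not separate its expression from the removal of tetracycline, and induction of the human sequence was not measured here. A single RNA sample was hybridized per clone and condition, and precision is limited by the number of arrays. The arrays of induced A1 and control A4 cells stood apart in 63 probe sets, 0 of them of these genes, picked because they read at least 1 log2 higher in induced cells of A1 and at least 1 log2 lower in those of A4. Their median was 8.08 log2 in the induced A1 array and 7.99 in the control A4 array, against 6.44 to 6.69 in the other 4. Over all probe sets the A3 arrays lay furthest from the rest (r of 0.988 to 0.992 with the A1 and A4 arrays, against 0.996 to 0.997 among those).

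In resting cells these genes are kept ready for transcription and need no new protein to be switched on. Kinases of the ERK, JNK and p38 cascades act on factors already bound to their promoters, such as the serum response factor SRF with its Elk partners, CREB and the ETS proteins. The transcripts are short-lived, and several of the proteins are themselves transcription factors. Egr1 and Egr2 are zinc finger factors, while Fos, Fosb, Jun and Junb pair with each other to form AP-1, which binds DNA as a dimer. Dusp1 is a phosphatase that switches MAP kinases off. Ier3 is a small protein linked to cell survival, and Ier2 and Ier5 are related nuclear proteins.

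Promoters of some of the members hold such elements. RefSeq promoter windows of build GRCm38.p6, from 250 bases before the transcription start to 50 after it, were matched for 8 of the 10 genes, all but Egr1 and Ier2. The 160 bases before the start are printed 5′ to 3′ for Jun (chr4:95052223-95052382, minus strand), Junb (chr8:84978749-84978908, minus strand), Fos (chr12:85473730-85473889, plus strand) and Dusp1 (chr17:26508473-26508632, minus strand). Jun is shown because it was lower in clone A3, Junb as its relative, and Fos and Dusp1 because their changes without tetracycline had opposite signs between clones. Capitals mark 3 elements searched on both strands. The cAMP response element, bound by CREB, is TGACGTCA or its first part TGACG. The TATA box was searched as TATAAA. The CCAAT box was searched under that spelling.
Jun: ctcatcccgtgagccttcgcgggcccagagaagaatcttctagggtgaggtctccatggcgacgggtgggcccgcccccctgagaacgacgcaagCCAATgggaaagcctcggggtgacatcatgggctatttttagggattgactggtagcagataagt
Junb: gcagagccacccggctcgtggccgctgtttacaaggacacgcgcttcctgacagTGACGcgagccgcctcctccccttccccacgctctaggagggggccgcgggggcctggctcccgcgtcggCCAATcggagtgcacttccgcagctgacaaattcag
Fos: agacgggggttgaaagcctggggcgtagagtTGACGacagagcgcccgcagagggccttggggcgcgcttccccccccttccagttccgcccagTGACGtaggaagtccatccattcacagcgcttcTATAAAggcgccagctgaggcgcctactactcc
Dusp1: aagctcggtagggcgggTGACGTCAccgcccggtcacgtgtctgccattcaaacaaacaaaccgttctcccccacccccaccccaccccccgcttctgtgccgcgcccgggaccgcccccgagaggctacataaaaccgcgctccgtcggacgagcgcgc

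TGACG was found in 5 of the 8 genes, counting a gene with any window that holds it, and in 20.8% of all 32851 promoter windows. The full TGACGTCA, which contains TGACG, was found in 1 gene, Dusp1, and in 1.79% of windows. TATAAA was found in 2 of the 8 genes, against 13.6% of windows. It lay at position -33 from the start in Fos and at position 0 in Junb, just past the printed bases. CCAAT was found in 5 genes and in 37.4% of windows, and in Jun it lay at position -65. The CArG box, where SRF binds, was matched in Egr2 alone of the 8, and in 1.63% of windows. The letters CCGGAA of an ETS site were also in Egr2 alone, and in 14.9% of windows. The letters TGANTCA of an AP-1 site were in none of the 8 and in 7.81% of windows, and GCGNGGGCG of an Egr site was in Fosb alone and in 5.55%. A match is a description of letters and not a site, and Egr2 had several windows, which gave it more chances of a match.

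**Figure D1:**
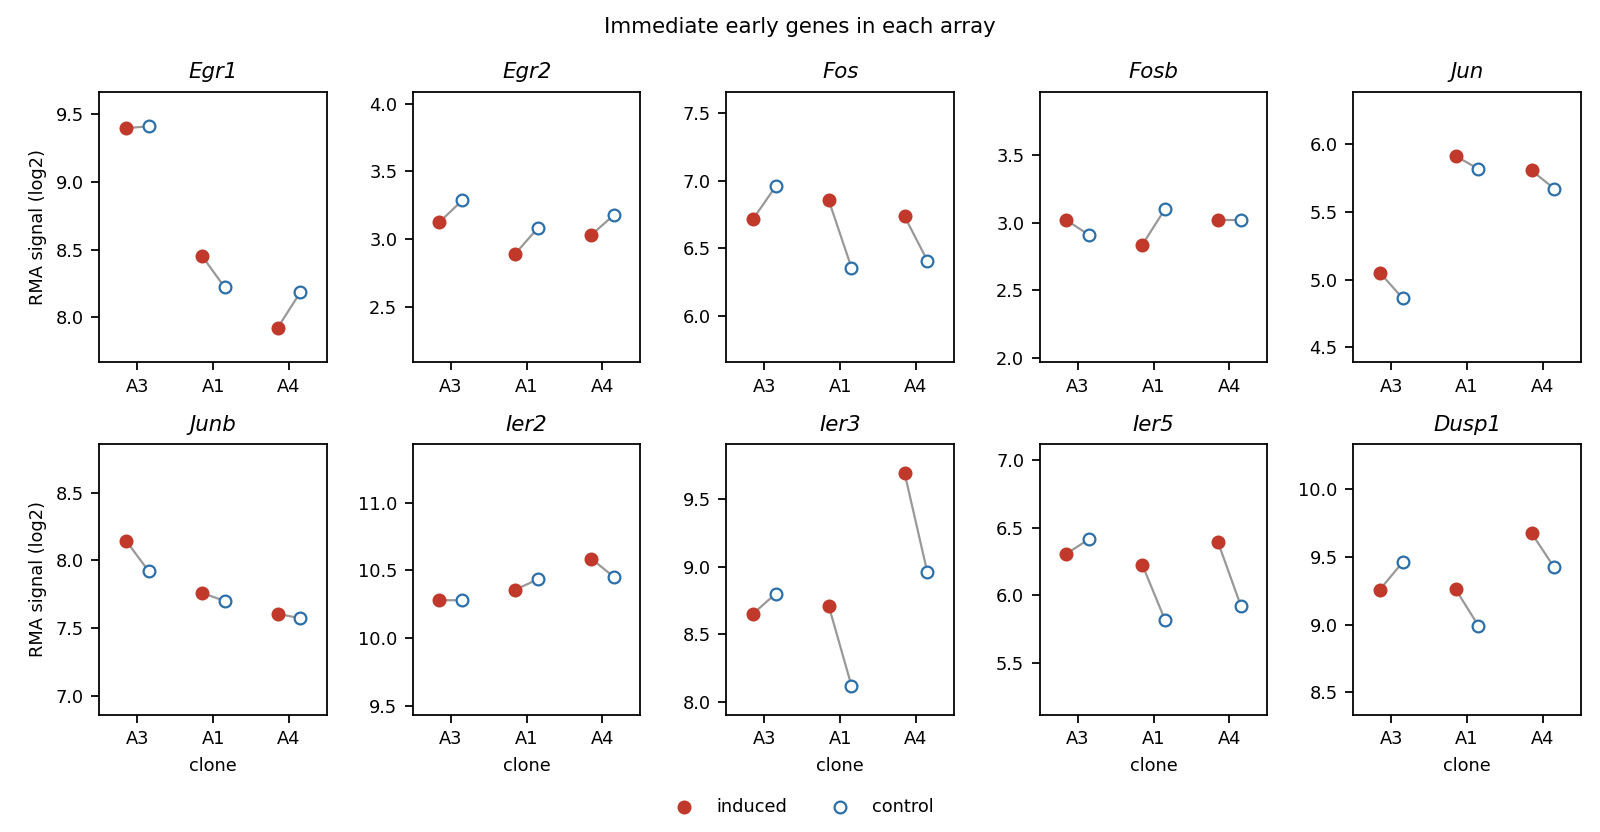
RMA signal (vertical axis, log2) of the brightest probe set of each gene in the 3 clones (horizontal axis), with induced cells as filled red and control cells as open blue circles joined within a clone. Vertical axes differ in position. Both A3 arrays lie above the other 4 for Egr1 and Junb and below them for Jun and Ier2, and the lines of Fos, Ier3, Ier5 and Dusp1 slope one way in A3 and the other way in A1 and A4.

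Among the 10 genes, Egr1 had the largest difference between A3 and the other clones. It read 9.40 in induced and 9.41 in control A3 cells, against 8.46 and 8.22 in A1 and 7.92 and 8.19 in A4. Both A3 arrays were higher than all 4 others. The difference between A3 and the mean of A1 and A4 was 1.21 ± 0.12 log2 (SE; 95% interval 0.92 to 1.49), a 2.31-fold higher signal, with an adjusted p of limma of 0.0016. Egr1 was 1.07 higher in A3 than in A1 (adjusted p of limma 0.0065) and 1.35 higher than in A4 (adjusted p of limma 0.0031), while A1 minus A4 was 0.28 and did not pass.

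Jun went the other way. Its brighter probe set read 5.05 in induced and 4.86 in control A3 cells, against 5.91 and 5.82 in A1 and 5.81 and 5.67 in A4. Both A3 arrays were below the other 4, and the difference was -0.85 ± 0.096 log2 (SE; 95% interval -1.07 to -0.62), a 1.80-fold lower signal with an adjusted p of limma of 0.0025. Jun was lower in A3 than in A1 by 0.91 log2 (adjusted p of limma 0.0047) and than in A4 by 0.78 (adjusted p of limma 0.0081). The second Jun probe set, dimmer, also had both A3 arrays (4.41 induced, 4.54 control) under those of A1 (4.72, 4.79) and A4 (4.60, 4.73). Its difference of -0.23 did not pass (adjusted p of limma 0.18). The genes were chosen with these opposite directions known, so the tests describe them and add no independent evidence.

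Junb, the Jun relative that often acts against it in AP-1, read 8.15 in induced and 7.92 in control A3 cells, against 7.76 and 7.70 in A1 and 7.61 and 7.57 in A4. Both A3 arrays were the highest of the 6. The difference of 0.37 ± 0.10 log2 (SE) did not pass, with an adjusted p of limma of 0.0598. It passed under 4 other settings of the fit, and in no fit that left out arrays or clones. Whether Jun and Junb differ in how A3 departs from the other clones was not tested as such.

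Over the 14 probe sets, the F test over the clones called 2, those of Egr1 and Jun, where it called 5.54% of all probe sets. Among probe sets with a mean of at least 5 log2, which 9 of the 14 reached, the background was 8.91%. In A3 against A1 and A4, 1 member probe set was higher and 1 lower, against 3.89% higher and 5.68% lower over all probe sets. Either test of A3 against a single clone called these 2 probe sets, where 6.6% of all were called against A1 and 6.3% against A4. Between A1 and A4 no member passed, against 0.0178% of all probe sets (8). A count of 2 among so few probe sets is not set apart from these backgrounds.

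Both A3 arrays lay outside the range of the other 4 for 7 of the 14 probe sets, against 36.4% of all. These were Egr1, Junb and 2 probe sets of Ier5 on the high side, and both Jun probe sets and Ier2 on the low side. Ier2 read 10.28 in both A3 arrays, against 10.36 (induced) and 10.43 (control) in A1 and 10.59 and 10.45 in A4. The distance was small, -0.18 log2, and did not pass (adjusted p of limma 0.33). For Ier5 the middle probe set read 5.88 in induced and 5.95 in control A3 cells, against 5.75 and 5.77 in A1 and 5.73 and 5.71 in A4, and its difference of 0.17 did not pass either.

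**Figure D2:**
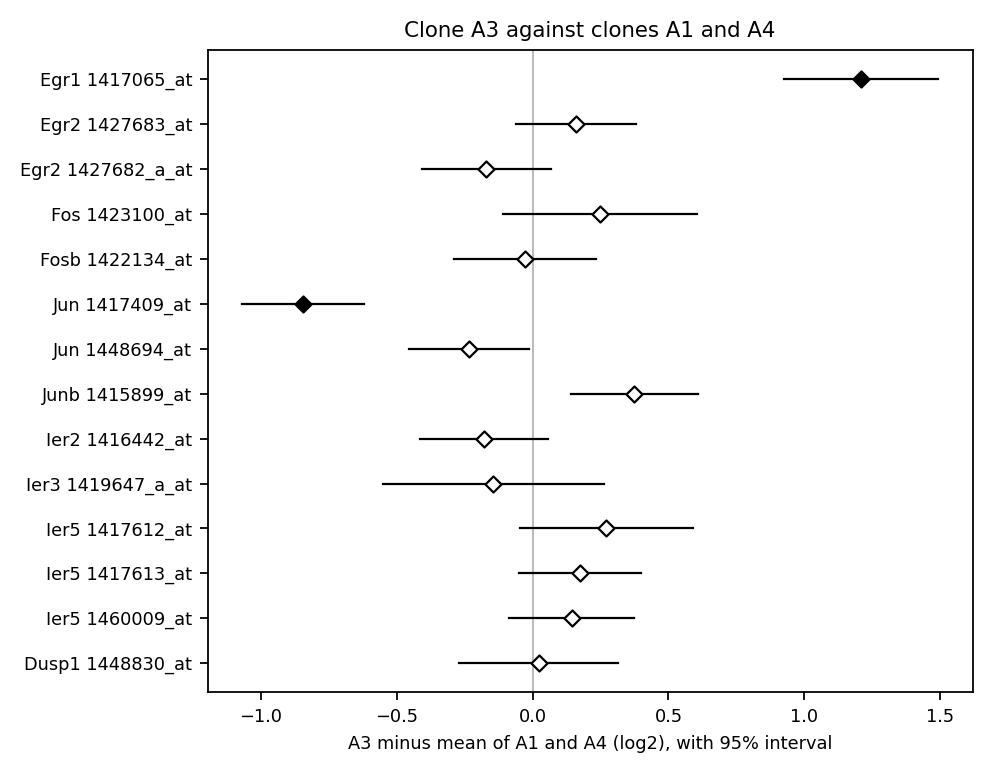
Difference between A3 and the mean of A1 and A4 (horizontal axis, log2) for each of the 14 member probe sets (vertical axis), with the 95% interval of limma. Filled diamonds passed the test. Egr1 stands at 1.21 and the brighter Jun probe set at -0.85, and the others lie between -0.23 and 0.37.

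Other measures varied with clone too. The signal of 18S ribosomal RNA was 7.27 in induced and 6.61 in control A3 cells, against 7.03 and 5.66 in A1 and 5.99 and 5.99 in A4, so that the A3 and A1 arrays overlapped. The gap between the 3′ and 5′ probe sets of Actb, a sign of RNA integrity, was 0.29 and 0.32 log2 in A3 and 0.40 to 0.45 in the other arrays. For Gapdh the same gap was 0.078 in induced and -0.0073 in control A3 cells. It was 0.054 to 0.10 in the other arrays, so that the A3 arrays overlapped them. Of 8 endoderm markers measured, the F test called 4 (Gata6, Sox7, Dab2 and Pdgfra, all lower in A3), against 6.84% of all genes. Their means were low, 4.02 to 6.54 log2 over the 8, and 5 of the 8 reached 5 log2. Called were 1 of 3 probe sets of Gata6, 1 of 2 of Sox7, 2 of 4 of Dab2 and 1 of 3 of Pdgfra. The summed linear signal of the 8 was 225 to 241 in A3 against 312 to 471 in A1 and A4. The part of RNA quality and of endoderm-like cells in the Egr1 and Jun differences was not tested.

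All 10 markers of ES cells were bright, with means of 10.29 to 14.05 log2, and 0 were called among clones. Esrrb was lower in A3 by 0.45 log2 and did not pass (adjusted p of limma 0.0504). It passed with a mean of at least 5 log2 (0.037), array medians subtracted (0.039) and trend and robust eBayes (0.013). With quantile normalization again Esrrb did not pass (0.062). Of the 10 fibroblast markers, 3 reached a mean of 5 log2 and 0 were called. Of the mesoderm and of the neural markers 0 of 7 were called. The summed linear signal of the neural markers was 643 to 650 in A3 against 566 to 606 in A1 and A4. Tubb3, the brightest of them (mean 8.24 log2), weighs most in this sum. It was higher in A3 by 0.28 and did not pass (adjusted p of limma 0.14), while Nes was lower by 0.19. The median A3 difference of the 7 neural markers was -0.0050 log2. On a bulk array, fewer cells of a type and less RNA per cell cannot be told apart.

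The removal of tetracycline left no member past the test. Over all probe sets 0% were called (0 of 45037, 676 at an unadjusted p under 0.05), and each of the 14 had an adjusted p of limma of 0.9999. For none of the 14 did the induced arrays lie clear of the control arrays, which 5.53% of all probe sets did. The Egr1 difference was -0.015 ± 0.44 log2 (SE), with a 95% interval of -1.03 to 1.01 in the fit without the clones. The brighter Jun probe set read 0.14 ± 0.30, with 0.096 in A1, 0.19 in A3 and 0.13 in A4. The second Jun probe set had the opposite sign in each clone (-0.068 in A1, -0.12 in A3 and -0.12 in A4). With clone as a block the differences were the same and their standard errors were 0.12 log2 for Egr1 and 0.091 for Jun.

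In 4 genes the change, with arrays paired by the clone in the labels, had one sign in A3 and the opposite sign in both A1 and A4. Over all probe sets, only the A3 arrays lay closest to their own clone, as given under processing. Fos, the AP-1 partner of Jun, read 6.85 in induced and 6.36 in control A1 cells, and 6.74 and 6.41 in A4. In A3 the order was reversed, 6.71 in induced and 6.96 in control cells. The induced arrays lay closer together (SD 0.075, n = 3) than the control arrays (SD 0.33, n = 3), which was not tested. Differences of this size were not rare: 4.0% of the probe sets with a mean of at least 5 log2 moved at least as far as Fos (0.50) in A1, 9.92% in A4 (0.33) and 15.4% in A3 (-0.24).

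Ier3 had the largest changes of the members in A1 and A4, though not in A3. It read 8.71 in induced and 8.12 in control A1 cells, 9.69 and 8.96 in A4, and 8.65 and 8.80 in A3. The changes of 0.59 in A1 and 0.73 in A4 were matched or passed by 2.22% and 0.733% of the brighter probe sets of those clones, and the change of -0.15 in A3 by 34.6%. Over the clones the difference was 0.39 ± 0.32 log2 (SE). With clone as a block its unadjusted p of limma was 0.047 and its adjusted p 0.9999. The difference A1 minus A4 in Ier3 was -0.91 ± 0.20 log2 (SE) and did not pass (adjusted p of limma 0.92).

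Ier5 read 6.23 in induced and 5.82 in control A1 cells, 6.39 and 5.92 in A4, and 6.31 and 6.42 in A3, on its brightest probe set. Its other 2 probe sets differed between induced and control cells by -0.023 and -0.081 on average, so the 0.26 ± 0.16 log2 (SE) of the brightest was not shared. Dusp1 read 9.26 in induced and 8.99 in control A1 cells, 9.68 and 9.42 in A4, and 9.26 and 9.46 in A3. Its difference over the clones was 0.11 ± 0.17 log2 (SE).

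Of the 9 member probe sets with a mean of at least 5 log2, these 4 (Fos, Ier3, Ier5 and Dusp1) read higher in induced cells of A1 and A4 and lower in those of A3, against 17.8% of all probe sets that bright. That share counts only this direction, which was taken from the members. The larger share with an opposite sign in A3 in either direction is not given. The difference between clones in these changes was not tested, since a single array per clone and condition leaves no spread to test it against. Without the induced A1 and control A4 arrays the difference between induced and control cells was 0.069 log2 in Fos, 0.71 in Ier3, 0.23 in Ier5 and 0.24 in Dusp1, and none passed. That fit had no clone term and set induced A3 and A4 cells against control A1 and A3 cells. Differences between A1 and A4, such as the -0.91 of A1 minus A4 in Ier3, therefore enter these values. The heat shock genes Hspa1a and Hspa1b, whose near-identical sequences can share signal, had the same signs, with changes of 0.44 and 0.46 in A1, 0.44 and 0.60 in A4, and -0.24 and -0.28 in A3. The 18S signal was higher in induced cells by more in A1 than in A3 and was level in A4, and its part in these changes was not tested.

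**Figure D3:**
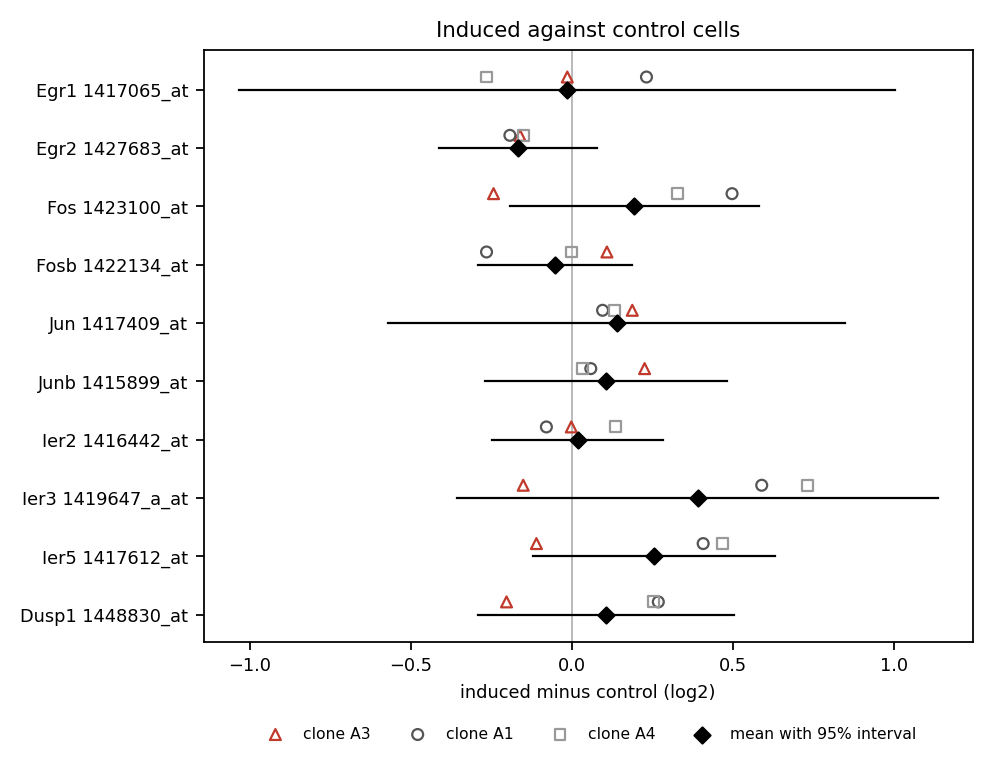
Induced minus control (horizontal axis, log2) for the brightest probe set of each gene (vertical axis). Open symbols are single clones (red triangles A3, circles A1, squares A4). Diamonds show the mean of the clones with its 95% interval from limma in the fit without the clones. Every interval of that fit includes 0. With clone as a block, which is not plotted, Ier3 had an unadjusted p of limma of 0.047 and an adjusted p of 0.9999. For Fos, Ier3, Ier5 and Dusp1 the red triangles lie below 0 and the symbols of A1 and A4 above it.

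The remaining probe sets were dim. Fosb read 2.84 to 3.10 log2 in all 6 arrays, with the same 3.02 in 3 of them, and the 2 probe sets of Egr2 read 2.89 to 3.28 and 2.30 to 2.68. The third Ier5 probe set read 2.82 to 3.10. None of these 4 probe sets and the second Jun probe set reached a mean of 5 log2, and a bound on a change in Fosb or Egr2 is not given by them.

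Among the other Egr genes and their Nab corepressors 0 of 4 were called (Egr3 0.39, Nab2 0.24, A3 minus A1 and A4), and among other AP-1 genes 0 of 8 (Jund -0.33, Atf3 -0.46), where 6.84% of all 18193 genes were called by the F test. In a wider list of 37 early response genes, which also holds Egr3, Egr4, Fosl1, Fosl2, Jund and Atf3 of the lists above, 8 were called, which is 21.6%. Nfkbia, the inhibitor of NF-kappaB, was higher in A3 by 1.21 log2, and all 5 of its probe sets were called. Lower in A3 were Arc, which acts at synapses (-1.07), the nuclear receptor Nr4a1 (-0.79), Gadd45b, a stress response gene (-0.76), and Ccn2, Plk2 and Rhob. Gadd45g was called with means of 6.85 in A3, 6.86 in A1 and 6.27 in A4, and did not pass in A3 against the other clones. In A3, 1 of the 37 was higher and 8 were lower, against 5.13% and 6.32% of all genes, and the median of the 37 was -0.14, against 0.038 over all genes.

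Of SRF and its cofactors, 2 of 7 were called. Elk3, a ternary complex factor that represses SRF targets, was higher in A3 by 1.46 log2 (adjusted p of limma 0.0017) on its brightest probe set. All 4 of its probe sets were higher in A3, and the F test called 2 of them. Mrtfa, a coactivator of SRF that responds to actin, was lower by 0.98 (adjusted p of limma 0.0071). The median of the 7 was -0.024. These values stand beside the higher Egr1 and lower Jun of A3 without a test of a link.

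In the ERK cascade 1 of 11 genes measured was called, Braf, a kinase above ERK, lower in A3 by 0.55 and called on 1 of its 9 probe sets. Sos2 read -0.17. In the JNK and p38 cascades 0 of 10 were called, with Map3k5 at -0.56 and Map2k6 at 0.18. Of 11 other Dusp phosphatases 1 was called, Dusp9, lower by 0.63 on its brightest probe set, and Dusp3 read 0.34. All 3 probe sets of Dusp9 were lower in A3 and called. Of the 7 proteins that bind AU-rich elements and set the lifetime of early response transcripts, 0 were called, with Khsrp at -0.71 and Zfp36l2 at -0.43. Khsrp, Zfp36l2, Map3k5 and Map2k1 (0.40) passed in A3 against A1 and A4 but not in the F test. Zfp36l2 did not pass in any fit without arrays or clones, and 1 of its 3 probe sets had this direction. Of the heat shock genes 4 of 10 were called: Hspa1b (-1.10), Hspa1a (-0.83) and Hsp90aa1 (-0.54) were lower in A3 and their co-chaperone Bag3 was higher (0.69).

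**Figure D4:**
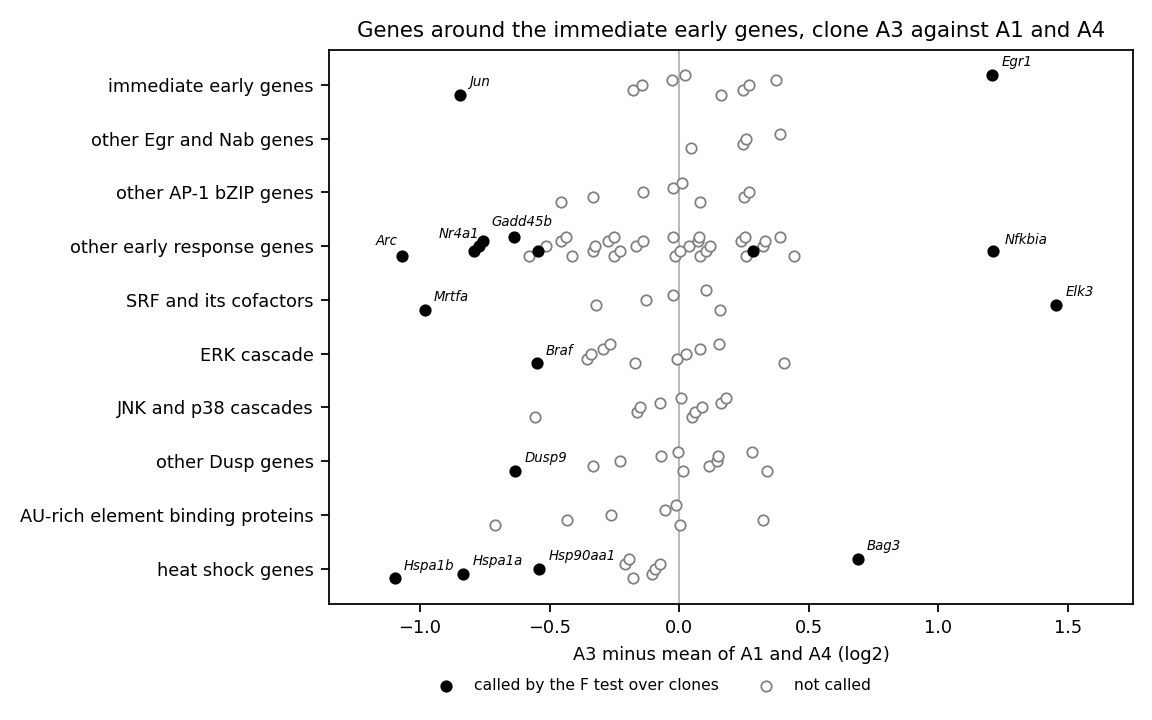
Difference between A3 and the mean of A1 and A4 (horizontal axis, log2) for the members and 9 lists (vertical axis), 1 probe set for each gene. The cell type markers are not plotted. Filled points passed the F test over clones, and Elk3 at 1.46 and Nfkbia and Egr1 at 1.21 lie furthest to the right of the genes plotted, while Hspa1b at -1.10 and Arc at -1.07 lie furthest to the left.

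In the induced against control comparison none of these lists had a gene called. The median of the 10 members was 0.11 log2, against 0.0028 over all genes. By clone it was 0.16 in A1, -0.061 in A3 and 0.14 in A4.

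The genes most like Egr1 over the 6 arrays were the decarboxylase Ddc (r = 0.994), Ttpa, which binds vitamin E (0.992), Acsl5, which activates fatty acids (0.988), Znf41-ps (0.987) and the splicing regulator Esrp1 (0.986). Most like Jun were Abitram (0.999), Ldah (0.997), the splicing regulator Mbnl1 (0.996), Igdcc4 (0.994) and Phlda1 (0.992). These are the highest Pearson correlations among 493 genes with a mean of at least 6 and a range of at least 1 log2. The arrays are 2 from each of 3 clones, so these values follow the distance of A3 from A1 and A4 and carry no p. The same holds for Egr1 with Jun (-0.92) and with Junb (0.92).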

How the data were processed

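The deposited values are log2 signals that the authors computed by robust multiarray average (RMA) with the affy package (version not given in the sources used here). RMA background-corrects, quantile-normalizes and summarizes probes, which compresses differences of dim probe sets. Array medians were 5.11 to 5.19 log2. Tests covered 45037 of the 45101 probe sets, without the 64 Affymetrix controls. The platform annotation gave 1 symbol for 34945 probe sets.

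Groups, clones and replicate numbers came from the sample labels. For induction, limma 3.58.1 (lmFit, eBayes; R 4.3.3) was fitted with condition alone, since the study's methods name no block. Clones were compared in a fit of condition and clone, by an F test and by A3 minus the mean of A1 and A4. Tests were two-sided and p-values were adjusted by Benjamini-Hochberg across the 45037 probe sets, with a threshold of 0.05. Replicate numbers 1, 2 and 3 are clones A1, A3 and A4 in the labels and so pair the arrays. Deviations from the group means correlated within a clone at 0.31 in A1, 0.67 in A3 and 0.29 in A4. Between clones the values were 0.37 for induced A1 with control A4 and 0.35 for induced A4 with control A1. By this measure A3 alone lay closest to its own clone.

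The members and the 14 lists were chosen with earlier results of these data known. Named were all member probe sets, up to 4 called genes of each list by the smallest p (the 2 of smallest p where fewer were called), and the 5 genes most like Egr1 and Jun. Ccn2, Gadd45g, Plk2 and Rhob were named after their values were seen. Lists used the brightest probe set of each gene. Alternatives were the replicate block, the methods' t-test, a mean of at least 5 log2, array medians subtracted, quantile normalization again, trend and robust eBayes, no condition term, 1 probe set for each gene, other probe sets, and leaving out arrays or clones. Leaving out control replicate 3 and induced replicate 1 together was chosen after seeing the data. The induction test with condition alone and the A3 contrast had first been tried on simulated data. The F test, the replicate block and the methods' t-test had not. In the simulation the induction test recovered 6% of changes of 0.5 log2 and 86% of changes of 1 log2. The A3 contrast recovered 56% and 100%. Among probe sets left unchanged in the simulation, the induction test made 2 false calls and the A3 contrast 29. Plots were drawn with matplotlib 3.10.9.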

Additional observations from a re-analysis of the deposited data

Results flagged for a closer look

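The changes on induction of 4 members had one sign in A3 and the opposite sign in A1 and A4, and in none of them was the difference between clones tested. Fos changed by -0.24 log2 in A3, against 0.50 in A1 and 0.33 in A4. Ier3 changed by -0.15 in A3, against 0.59 in A1 and 0.73 in A4. Ier5 changed by -0.11 in A3, against 0.41 in A1 and 0.47 in A4. Dusp1 changed by -0.20 in A3, against 0.27 in A1 and 0.25 in A4. Each value is the difference of 2 arrays, paired by the clone in the labels. Over all probe sets, deviations of induced A1 cells correlated at 0.37 with control A4 and at 0.31 with control A1 cells. Those of induced A4 cells correlated at 0.35 with control A1 and at 0.29 with control A4 cells. The induced A1 and control A4 arrays had a higher median than the other 4 in 63 probe sets, none of them of these genes. These 63 were picked for opposite changes in A1 and A4.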

How the results depend on the processing

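The 3 pairs of arrays allow a fit with clone as a replicate block: it called 0 probe sets on induction (1539 at an unadjusted p under 0.05), as did the methods' t-test (1096), and it changed no call of a member. Egr1 and the brighter Jun probe set kept their direction and stayed past the threshold in A3 in every fit run, while the second Jun probe set did not pass (-0.23, adjusted p of limma 0.18). Without single arrays or clones Egr1 was 1.07 to 1.35 log2 (adjusted p of limma 0.0015 to 0.027, these values and those below including the fit without the induced A1 and control A4 arrays), and Jun was -0.91 to -0.78 (0.0069 to 0.049). Junb passed in A3 with a mean of at least 5 log2 (adjusted p of limma 0.037), quantile normalization again (0.037), trend and robust eBayes (0.036) and no condition term (0.045).

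Probe sets called among clones were 589 to 1959 without single arrays, against 2496 with all, and those called in A3 were 1312 to 3098 without single arrays or clones, against 4309. The 589 and the 1312 came without the induced A3 array. Without control replicate 3 and induced replicate 1 together, 940 were called in A3. Fewer arrays entered these fits. On induction the sign turned for Egr1 (0.0098) and in A3 for Dusp1 (-0.0090) with array medians subtracted. It also turned on other probe sets: on induction for Egr2 (0.088), Jun (-0.10) and Ier5 (-0.023 and -0.081), and in A3 for Egr2 (-0.17). The cause was not tested.

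Leaving out arrays or clones turned the sign of values that had not passed. On induction the ranges were -0.42 to 0.39 for Egr1, -0.15 to 0.41 for Jun, -0.071 to 0.083 for Ier2, -0.043 to 0.26 for Dusp1, -0.13 to 0.055 for Fosb (0.014 without both arrays) and -0.048 to 0.22 for Junb. In A3 they were -0.081 to 0.57 for Fos, -0.15 to 0.091 for Fosb, -0.0030 to 0.54 for Ier5, -0.21 to 0.25 for Dusp1, -0.60 to 0.31 for Ier3, -0.21 to 0.051 for Eomes and -0.47 to 0.13 for Sos2. Of the listed genes called by the F test, Arc, Nfkbia, Elk3 and Dab2 passed in A3 in every such fit. Gadd45b, Nr4a1, Mrtfa, Braf, Hspa1a, Hspa1b, Hsp90aa1, Bag3 and Sox7 did not pass without the induced A3 array (adjusted p of limma 0.053 to 0.18). Hsp90aa1, Bag3, Sox7 and Dusp9 did not without the control A3 array (0.057 to 0.10), nor Braf and Dusp9 without the control A1 array (0.060 and 0.051), nor Braf and the 3 lower heat shock genes without the induced A1 array (0.054 to 0.078), nor Braf without the induced A4 array (0.054), nor these 4, Bag3, Sox7 and Gata6 without clone A1 (0.051 to 0.11). Of those called in A3 alone, Khsrp did not pass without the induced A1, the induced A3, clone A1 or clone A4 (0.050 to 0.18), Map3k5 without the induced A1, any control array, clone A1 or clone A4 (0.056 to 0.20), and Zfp36l2 without any array or clone (0.058 to 0.41) or with quantile normalization again (0.060). Pdgfra lost its call without any 1 of the 6 arrays.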
